A study of Vitis vinifera and Vitis riparia and Vitis amurensis with 189 samples.

Results

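Dormant buds of the wild North American grape Vitis riparia were compared before and after their first day at room temperature. The libraries were chosen by their titles, which gave 10 of the 189 libraries of the series: 6 from day 0 and 4 from day 1. Both groups carry the tissue label Dormant Bud and the same genotype, PI588275, which stands in a germplasm repository as clonal vines under standard vineyard conditions. Day 0 buds were frozen straight from canes pruned in the vineyard. For day 1, canes were cut to single nodes and kept in cups of water at room temperature until the next day, so the groups differ in cutting and in standing in water as well as in temperature and time, and these cannot be told apart. The labels give no age of the vines and no vineyard or room temperature. They speak of 3 replicate buds at day 0, although 6 libraries carry that day, and do not say which vine a library came from. P-values therefore measure a spread between samples only, which cannot be read as one between vines. In the main test that spread was estimated from the V. riparia samples of all days. The samples stand for 1 genotype and not for the species.

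Grapevine buds pass the winter in a state of dormancy in which growth is halted and the tissue is hardy to freezing. Once enough chilling has been received, warmth leads to deacclimation, the loss of that hardiness, and then to swelling and budburst. Deacclimation starts before any growth can be seen, and wild species from cold climates are known to lose hardiness fast when warmed. The day 1 libraries sample the outset of this process, and the other V. riparia libraries follow it to day 12.

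The gene identifiers have the Vitvi form of a Vitis vinifera annotation. None of the 42394 identifiers matched the gene table used here, so genes have no names or functions below, and the tissue label was not checked against markers. The labelled genotype was checked by profile. All 10 libraries correlated best with the day 2 mean of V. riparia among the day 2 means of the 4 genotypes (Pearson r from 0.881 to 0.957 across 20030 genes, against at most 0.876 for another genotype). A marker rule on medians, also chosen after the data had been seen, gave 2 V. riparia markers, which held 79.2% to 99.2% of the marker counts of all 4 genotypes, on only 6 to 275 such counts per library. Total gene counts ran from 1257186 to 16229199 per library on day 0 and from 1585133 to 7935408 on day 1. Levels are in CPM, counts divided by the effective size of their library. The detection floor, set at 3 counts in a library, ranged from 0.238 to 2.94 CPM on this scale.

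Some of the 10 libraries were near copies of each other. The biological coefficient of variation (BCV) of a pair, which is the relative spread left after counting noise, was 0.0784 between day 0 replicates 1 and 4, 0.0767 between day 0 replicates 3 and 6, and 0.0653 between day 1 replicates 2 and 4. Every other pair among the 10 libraries was at 0.195 or above. The near copies differed by more than counting noise, with a chi-square of 2.05 to 2.9 per gene, against at least 12.1 in the other pairs of the same day. Each near copy was summed with its partner and counted as 1 sample, which left 4 samples at day 0 and 3 at day 1.

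The day 1 samples were spread more widely than the day 0 samples. With near copies taken once, pairs within day 0 had a BCV of 0.195 to 0.397, and pairs within day 1 had 0.424 to 0.458. The 9 day 1 pairs of the other genotypes ran from 0.176 to 0.359. Between the days the values ran from 0.355 to 0.604, so the scatter among day 1 samples lay inside the range of the difference between the days. Day 1 replicate 1 was closer to day 0 replicate 5, at 0.355, than to either other day 1 sample, at 0.424 and 0.457. Day 1 replicate 3 stood apart in a technical measure: 32.4% of its records aligned to more than 1 place, whereas the other 9 libraries had at most 21%. Replicates 2 and 4 of day 1 had the most records that fell in no annotated gene, 25.9% and 27.6% (the no-feature share). The part of these shares in the results was not tested beyond the values given below.

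After 1 day, 3024 of 20368 tested genes had changed, or 14.8%. The call was made with edgeR's quasi-likelihood test at a Benjamini-Hochberg adjusted p under 0.05. It came from a fit to all V. riparia days, which pools their spread although the day 1 samples were widely spread. Higher genes numbered 1910 (9.38% of those tested) and lower genes 1114 (5.47%). In whole buds, a lower count can mean fewer cells of a type or less RNA per cell, and these cannot be told apart. Risers had a median log2 fold change of 1.53 and fallers one of -1.27, beside 0.04 over all tested genes. Of the risers, 1635 had at least doubled, 519 had risen at least 4-fold and 58 at least 16-fold. The fallers held 805 genes at or below 1 part in 2 of their day 0 level, 171 at or below 1 in 4 and 7 at or below 1 in 16.

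The number of genes depended on which libraries entered. With every library as its own sample 4912 of 20358 genes passed (24.1%), 2825 higher (13.9%) and 2087 lower (10.3%), but near copies then count as independent. With replicates 1 to 3 only, 2241 of 20148 genes passed (11.1%), 1307 higher (6.49%) and 934 lower (4.64%). A fit to days 0 and 1 alone tested fewer genes. It gave 1739 of 16445 genes with near copies summed and 4323 of 15748 with every library. With replicates 1 to 3 it gave 427 of 15431, where 6 libraries have to supply the whole estimate of spread. The last 2 of these settings were chosen after the data had been seen. Day 1 replicates 2 and 3 moved the count most. Without day 1 replicate 2 (summed with its near copy 4) 1707 genes passed, and without replicate 3 there were 1885. Leaving out replicate 1, the sample nearest to day 0, gave 3635. Replicates 2 and 4 are also the ones whose no-feature share exceeds 25%, so a limit at that share gives the same 1707. Dropping single day 0 samples left 2227 to 2800 genes.

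A core of 937 genes, 31% of the 3024, was called in the same direction with every library, with replicates 1 to 3, with days 0 and 1 only and after each single omission. It held 649 risers and 288 fallers. The median absolute log2 fold change in the core was 1.72, against 0.57 over all tested genes. In 892 of these 937 genes the 4 day 1 libraries lay all above or all below the 6 day 0 libraries. Over all 20368 tested genes, 8.46% had all day 1 libraries above and 7.68% had all of them below. The core was chosen by this same contrast, so its fold changes and its separation are a description. Near copies count as separate libraries in these shares.

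**Figure D1:**
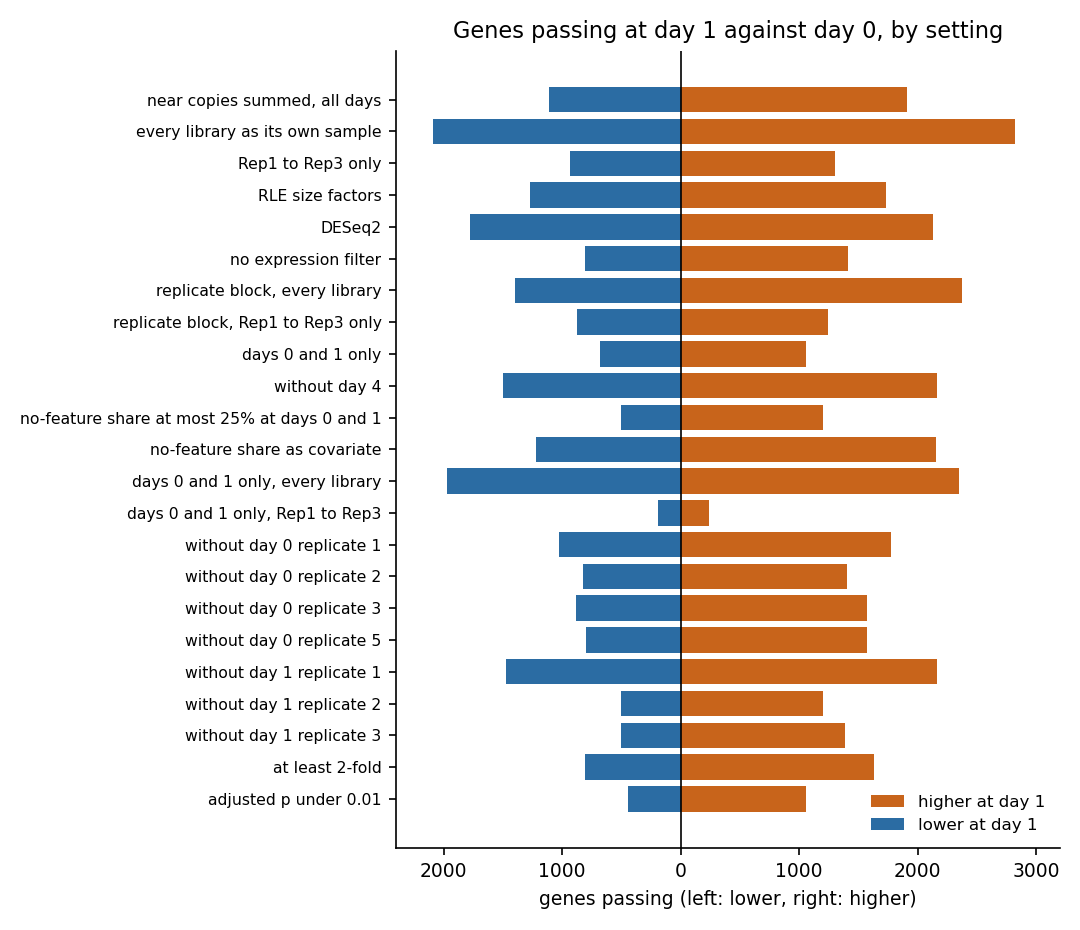
Number of V. riparia genes passing at day 1 against day 0 under each setting, with genes lower at day 1 to the left of 0 and genes higher at day 1 to the right. The top bars show the 1910 higher and 1114 lower genes with near copies summed. More genes were higher than lower in every setting shown, while the total ran from 427 to 4912. The number of genes tested differs between settings.

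Expression level set the direction of the calls apart. When the tested genes were divided into quintiles by their mean log2 CPM over days 0 and 1, risers outnumbered fallers in the lower quintiles and fallers outnumbered risers in the highest. In the middle quintile, with means from 2.93 to 4.49 log2 CPM, 15.5% of genes passed as higher and 3.85% as lower. In the highest quintile, above 5.98 log2 CPM, 2.7% passed as higher and 13.7% as lower. The median log2 fold change of all genes in that quintile was -0.27, and in the middle quintile it was 0.22. With size factors by the median-ratio method in place of TMM these medians were -0.32 and 0.17, and 2.36% against 16% of the highest quintile passed. The other genotypes had a like split in a joint fit, with 18.7% to 29.1% of their most abundant quintile lower and 5.43% to 7% higher.

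**Figure D2:**
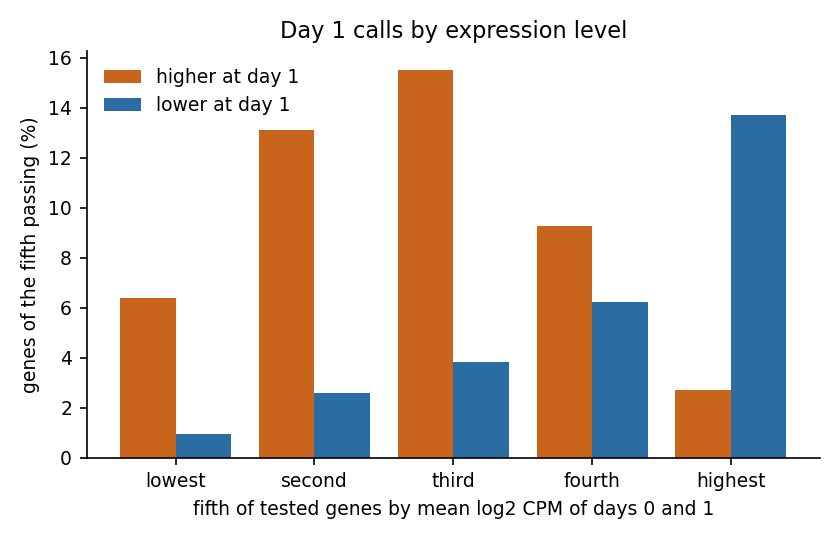
Share of tested genes (percent) that passed as higher or as lower at day 1 in V. riparia, for quintiles of mean log2 CPM over days 0 and 1. Higher genes peak in the middle quintile at 15.5%, and lower genes peak in the highest quintile at 13.7%.

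The risers together held a small share of the RNA counted. The 1910 genes held 2.19%, 2.06%, 1.97% and 2.11% of all gene counts in the 4 day 0 samples. They held 5.13%, 7.71% and 7.4% in day 1 replicates 1, 2 and 3. The 1114 fallers went the other way, from 17.7%, 18.6%, 17.4% and 18.2% at day 0 to 11.4%, 8.02% and 8.28% at day 1. These genes were chosen by the same contrast, so the shift in V. riparia is a description, and in both sets replicate 1 lies nearest to day 0. The same genes shifted in genotypes that took no part in choosing them. In V. amurensis, the other wild species, the riser share was 3.43% to 3.67% at day 0 (4 samples) and 8.26% to 9.18% at day 1 (3 samples). In the V. vinifera cultivars it went from between 2.27% and 2.8% to between 6.49% and 7.43% in Cabernet Sauvignon, and from between 2.77% and 3.25% to between 6.56% and 7.93% in Riesling, with 3 samples a day. The faller share was 14% to 15.4% over the 10 day 0 samples of these genotypes and 7.9% to 9.04% over their 9 day 1 samples. In no genotype did the days overlap.

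Summary measures of the libraries gave no difference that passed a test, and the number of samples allowed none: 4 against 3 cannot give a two-sided permutation p below 0.0571. The 100 most abundant genes of each sample held 21.9% ± 1.82 of gene counts at day 0 (SD, n = 4) and 18.3% ± 2.98 at day 1 (SD, n = 3), an exact two-sided permutation p of 0.171. The 1000 most abundant genes held 53%, 50.8%, 53.3% and 51.3% in the day 0 samples and 44.5%, 48.6% and 44.7% at day 1. The days did not overlap, and the exact permutation p of 0.0571 is the smallest that this form of the test can give. At a common depth of 1257186 counts, 18611 ± 335 genes were detected at day 0 and 18919 ± 722 at day 1 (exact permutation p = 0.457). Without day 1 replicate 1 the direction of that difference turned, to -108 genes. Genes with at least 3 counts at that depth numbered 14944, 15003, 15013 and 15482 in the day 0 samples and 16245, 15546 and 15800 at day 1, again with no overlap (a difference of 753 genes, exact permutation p = 0.0571). The no-feature share was 15.6% ± 3.87 (n = 4) and 21.8% ± 5.33 (n = 3; exact permutation p = 0.229), and the share aligned to more than 1 place was 13.2% ± 4.83 and 18.4% ± 12.2 (exact permutation p = 0.514). After adjustment over 5 such measures the p-values were 0.571 to 0.686.

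Among genes that passed both with near copies summed and with replicates 1 to 3, with no overlap between the 10 libraries and a mean of at least 3 log2 CPM, Vitvi17g00217 and Vitvi11g00195 rose most. Vitvi10g00478 and Vitvi09g00285 fell most. The next 18 risers by this rule had log2 fold changes from 3.09 to 5.13 (edgeR adjusted p at most 0.000805), and the next 18 fallers had -3.33 to -2.45 (edgeR adjusted p at most 0.0169). The rule used this same contrast, so the separation, size and p-values of these genes in V. riparia at day 1 are a description.

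Vitvi17g00217 was at 2.84, 5.15, 3.74, 0, 13.8 and 7.94 CPM in day 0 replicates 1 to 6, and at 193, 408, 350 and 369 CPM in day 1 replicates 1 to 4. The lowest day 1 library, replicate 1, was far above the highest day 0 library. Its sample mean went from 7.2 ± 5.07 CPM (SD, n = 4) to 311 ± 99.9 CPM (SD, n = 3), a log2 fold change of 5.43 ± 0.487 (SE; edgeR adjusted p = 2.47e-09). V. riparia buds went on to 621 ± 269 CPM at day 2 and to a highest mean of 2238 ± 242 CPM at day 10 (n = 3 each). In V. amurensis the gene was already at 344 ± 118 CPM on day 0 (n = 4) and reached 1715 ± 495 CPM (n = 3) a day later. The V. amurensis log2 fold change was 2.33 ± 0.69 (edgeR adjusted p = 0.0146), and it was 2.81 ± 0.805 in Riesling (edgeR adjusted p = 0.0176). Cabernet Sauvignon did not pass, with 2.04 ± 0.78 (edgeR adjusted p = 0.0578). The change in V. riparia exceeded these by 2.60 to 3.37 on the log2 scale, but no difference passed (edgeR adjusted p from 0.101 to 0.301).

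Vitvi11g00195 was nearly silent at day 0, with 1.06, 1.72, 0, 0.981, 4.29 and 1.32 CPM in replicates 1 to 6, and stood at 78.7, 104, 93.4 and 107 CPM in day 1 replicates 1 to 4. The day 1 libraries were close together here, including replicate 1. The log2 fold change was 5.36 ± 0.84 (SE, edgeR adjusted p = 4.34e-05). Day 0 replicates 1, 3, 4 and 6 were at or below their detection floors of 1.06, 2.81, 2.94 and 1.32 CPM, so the size of the rise is uncertain. Without day 0 replicate 5, the highest, the log2 fold change was 6.22. After 110 ± 44.2 CPM at day 2, the mean was 13.3 ± 11.2 CPM at day 5 and 1066 ± 195 CPM at day 10 (n = 3 each). The mean thus fell from day 2 to day 5, with 73.5 ± 58.3 CPM at day 3 (n = 3). It was 61.3 ± 79.5 CPM at day 6, 139 ± 155 CPM at day 7 and 504 ± 370 CPM at day 8 (n = 3 each). At day 7 the libraries were split, with 42.9, 59 and 308 CPM. The other genotypes changed by 4.70 to 5.69 on the log2 scale at day 1 (edgeR adjusted p at most 5.82e-06), and their differences from V. riparia, from -0.34 to 0.66, did not pass (edgeR adjusted p from 0.791 to 0.989).

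Vitvi10g00478 was at 76.6, 82.1, 246, 90.2, 63.4 and 484 CPM in day 0 replicates 1 to 6. Replicates 3 and 6, the high ones, are near copies. The day 1 libraries had 17.5, 5.2, 18.4 and 4.78 CPM in order of replicate. The log2 fold change was -3.57 ± 0.928 (SE; edgeR adjusted p = 0.00772). It did not pass without day 0 replicate 3 (-2.46, edgeR adjusted p = 0.0666) or without day 1 replicate 2 (-3.15, edgeR adjusted p = 0.06). Later means were lower still, with 3.46 ± 1.95 CPM at day 5 and 0.728 ± 0.677 CPM at day 12 (n = 3 each). The gene fell in the other genotypes as well, by log2 fold changes from -5.42 to -3.11 (edgeR adjusted p at most 0.00213).

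Vitvi09g00285 had even values at day 0, 620, 475, 646, 574, 683 and 612 CPM in replicates 1 to 6. At day 1 it was at 107, 28.6, 36.4 and 30 CPM in replicates 1 to 4, so replicate 1 kept the highest level. The mean went from 628 ± 93 CPM (SD, n = 4) to 58.7 ± 44.1 CPM (n = 3), a log2 fold change of -3.38 ± 0.628 (SE; edgeR adjusted p = 0.000309). It held near that level to day 4, at 55.9 ± 37.3 CPM (n = 5), and was at 6.76 ± 2.18 CPM by day 12 (n = 3). V. amurensis had a like day 0 mean of 640 ± 72.8 CPM (n = 4), while Cabernet Sauvignon and Riesling were at 74.1 ± 14.7 and 94.9 ± 25.2 CPM (n = 3 each). It fell in these 3 genotypes by log2 fold changes of -2.83 to -2.30 (edgeR adjusted p at most 1.61e-05).

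**Figure D3:**
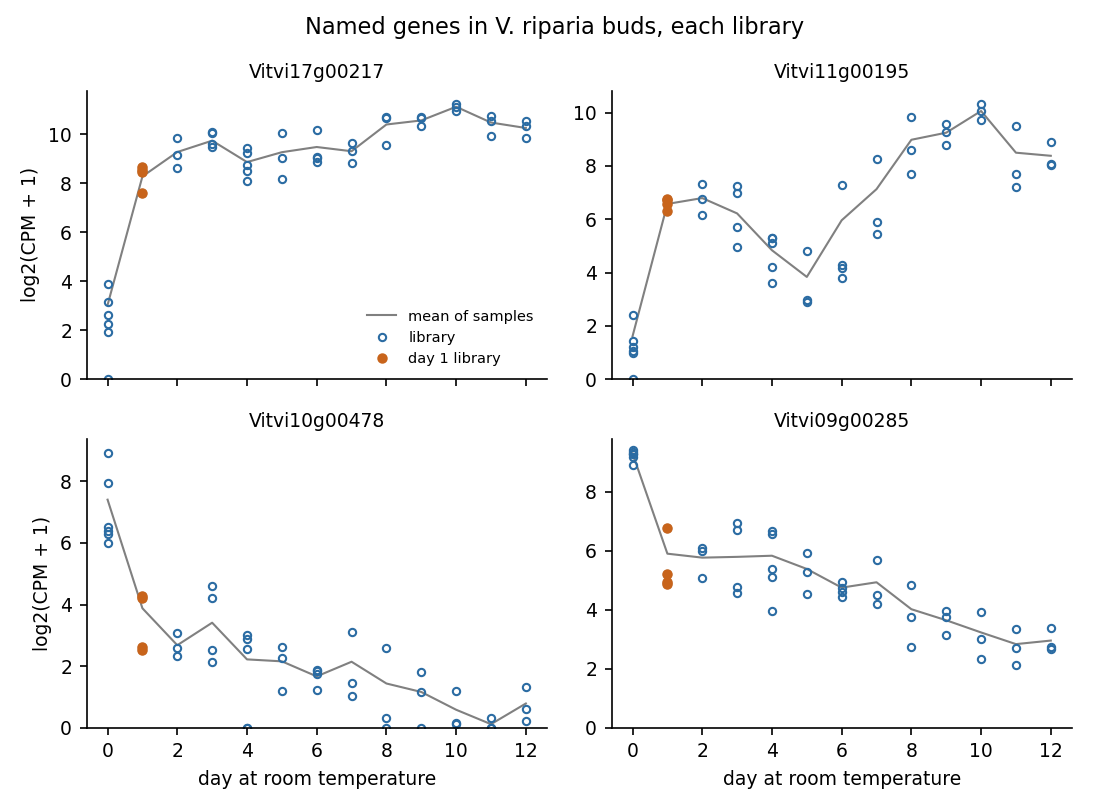
Level of the 4 named genes in V. riparia buds, as log2(CPM + 1), against days at room temperature; circles are libraries, filled circles are the day 1 libraries, and the line joins the log2 of each day's mean CPM over samples plus 1. All day 1 libraries of Vitvi17g00217 and Vitvi11g00195 lie above the day 0 libraries, and all those of Vitvi10g00478 and Vitvi09g00285 lie below. The rule that chose these genes required this.

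The day 1 change of V. riparia was set beside that of V. amurensis, Cabernet Sauvignon and Riesling, each against its own day 0 libraries, in a joint fit to days 0 and 1 of the 4 genotypes. In that fit 23.7% of 19070 genes passed in V. riparia, 28% in V. amurensis, 26.4% in Cabernet Sauvignon and 18.5% in Riesling. Of the 2517 genes higher in V. riparia (13.2% of those tested), 1286 were also called higher in V. amurensis, which is 51.1% of the V. riparia list and 47.3% of the V. amurensis list. Cabernet Sauvignon shared 1174 risers, 46.6% and 43.5% of the lists, and Riesling shared 938, or 37.3% and 47.4%. Among 2010 genes lower in V. riparia (10.5%), 1291 were shared with V. amurensis (64.2% and 49.4% of the lists), 1124 with Cabernet Sauvignon (55.9% and 48.1%) and 927 with Riesling (46.1% and 59.8%). Over all tested genes, 14.3%, 14.1% and 10.4% were called higher in these genotypes, and 13.7%, 12.2% and 8.13% lower. In all 4 genotypes 600 genes were higher and 722 lower.

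Genes called the same way in the 3 other genotypes form lists chosen by contrasts that held no V. riparia library, although the fit shared its estimate of spread. They held 875 risers and 955 fallers. In the V. riparia fit 864 of these risers were tested, and 515 of them passed as higher, or 59.6% beside 9.38% of all tested genes. Of the fallers 949 were tested, and 479 passed as lower, or 50.5% beside 5.47%. With replicates 1 to 3 only, 47.6% and 46.4% passed. The direction matched in 833 risers and 926 fallers, and 1 riser and none of the fallers passed in the opposite direction by edgeR's adjusted p.

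Within V. riparia these lists show how far each day 1 sample had moved. Relative to the day 0 mean, the median riser stood at 0.97, 1.53 and 1.27 on the log2 scale in day 1 replicates 1, 2 and 3, and between -0.09 and 0.08 in the day 0 samples. The median faller stood at -0.73, -1.22 and -1.10 in those replicates, and between -0.05 and 0.10 at day 0. All 3 day 1 samples were outside the day 0 range, with replicate 1 the least displaced in both lists. The day 0 samples were measured from their own mean, which narrows their range. From day 1 the contrasts with day 0 share its libraries. The median log2 fold change of the risers was 1.32 at day 1, 1.48 at day 2, 1.65 at day 8 and 1.47 at day 12. For the fallers it was -1.01 at day 1, -1.43 at day 2, -1.80 at day 8 and -1.86 at day 12. The medians over all genes were between 0.01 and 0.14 on these days. In the same fit 6302 genes passed at day 2, 8892 at day 5 and 12253 at day 12.

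**Figure D4:**
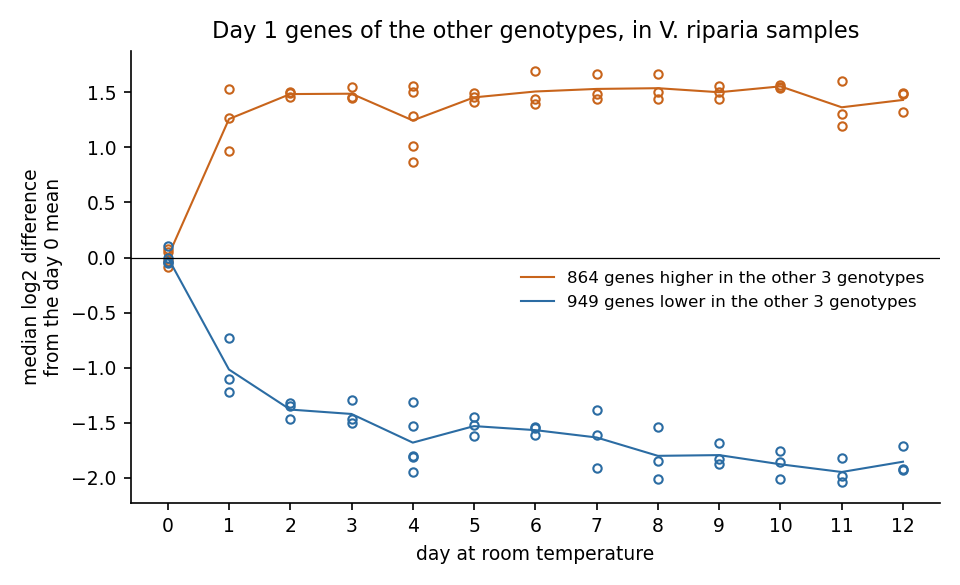
Median log2 difference from the V. riparia day 0 mean, in each V. riparia sample by day at room temperature, for the 864 genes called higher and the 949 called lower at day 1 in all 3 other genotypes; lines join the means of samples. Day 1 samples lie at 0.97 to 1.53 and at -1.22 to -0.73, and all later samples stay on the same side of 0.

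Few genes passed the test of a difference between genotypes in the day 1 change. Against V. amurensis 145 of 19070 genes passed (0.76%). The V. riparia change was the more positive one in 59 of them (0.309%) and the more negative one in 86 (0.451%). Against Cabernet Sauvignon there were 425 (2.23%), of which 171 were more positive (0.897%) and 254 more negative (1.33%). Riesling gave 188 (0.986%), with 51 more positive (0.267%) and 137 more negative (0.718%). At an unadjusted p under 0.05 there were 2451, 2877 and 2293. In 112, 274 and 129 of the called genes the fitted changes had opposite signs, and in 25, 54 and 27 of them both changes passed on their own. Where both had the same sign, the change was larger in V. riparia in 9, 19 and 12 genes and larger in the other genotype in 24, 132 and 47. A gene that does not pass is not shown to respond alike.

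These counts rest on few samples. With replicates 1 to 3 they were 42, 233 and 89, and with every library 332, 757 and 347. Without day 1 replicate 1 of V. riparia they were 303, 628 and 480. Leaving out day 0 replicate 2 gave 63 against V. amurensis and 101 against Riesling, and leaving out day 0 replicate 5 gave 94 and 100. The Riesling count was 106 without day 1 replicate 3 of V. riparia. V. amurensis samples mattered as much, since the count was 75 without its day 0 replicate 1 and 64, 48 and 42 without day 1 replicates 1, 2 and 3. Against Cabernet Sauvignon there were 211, 230 and 271 genes without its day 0 replicates 1, 2 and 3 and 259 without its day 1 replicate 3. Against Riesling there were 77, 124 and 68 without its day 0 replicates 1, 2 and 3, and 78 and 110 without its day 1 replicates 2 and 3.

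A small set of genes passed the test of a difference from each of the 3 other genotypes. These tests share the same V. riparia samples, so passing all 3 does not amount to 3 independent results. In 6 of 19070 genes the change was upward in V. riparia and more positive than in each other genotype. In 8 it was downward and more negative than in each. The 6 risers had log2 fold changes from 0.68 to 3.45 in V. riparia. None of them was called higher in another genotype by edgeR's adjusted p, and 2 were called lower in each. Over all tested genes, 13.7% were called lower in V. amurensis, 12.2% in Cabernet Sauvignon and 8.13% in Riesling. The 8 fallers ran from -2.69 to -0.85 in V. riparia, and 6 of them were called higher in Cabernet Sauvignon, 5 in Riesling and 2 in V. amurensis, beside 14.1%, 10.4% and 14.3% of all tested genes. In each of these genotypes 1 of the 8 was called lower, beside the shares called lower given above. Both sets were selected for changes unlike those of the other genotypes, so these counts are a description. Without the condition on V. riparia's own change, 6 genes were more positive and 15 more negative than in each other genotype, against 3 and 5 with replicates 1 to 3, 13 and 35 with every library, and 17 and 49 with DESeq2.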

How the data were processed

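For each library the authors deposited raw read counts by gene, with 5 bookkeeping rows that were left out of library sizes and tests and used only for the shares given. cutadapt, STAR, HTSeq and DESeq2 are named in the submitters' processing notes; the genome build, annotation and strand setting are not given in the sources used here, so overlapping or antisense genes and close paralogs cannot be told apart. Libraries follow a modified Borodina protocol, per the labels' protocols. Genotype, day and replicate came from the titles.

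Libraries of 1 genotype and day with a pair BCV under 0.09 (edgeR common dispersion, genes with at least 20 counts in the pair) were summed. edgeR 4.0.16 in R 4.3.3 was run with TMM, filterByExpr and robust quasi-likelihood fits, with genotype and day as 1 factor; standard errors came from the F statistic. DESeq2 1.42.0 was an alternative. Other steps used Python 3.11.15 and SciPy 1.17.1. CPM values use effective library sizes, and log2 CPM a prior count of 2. Permutation tests were exact. Floors cover counting error only, while SD and SE include the spread between samples. The gene fits were tested on simulated counts with 200 changed genes. The day 1 test recovered 67 of 100 genes changed 4-fold and 8 of 100 changed 2-fold, with 2 false calls. For the difference from V. amurensis, 71 of 100 and 3 of 100 were recovered, with no false call. Most 2-fold changes were thus missed in the simulation. It drew each gene on its own and gave all samples the same trend of spread. The real day 1 samples of V. riparia were more widely spread, and far more genes passed. The recovery and false calls of the simulation therefore do not carry over to the real counts.

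The named genes are the 2 with the largest change in each direction under the rule given in the report. The comparisons and lists were chosen with earlier results of these data known. The profile check was added after the planned one, by marker genes at 20 CPM or more in 1 genotype, found no V. riparia marker.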

Additional observations from a re-analysis of the deposited data

Results flagged for a closer look

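The no-feature share of day 0 replicate 2 was 9.86%, far below the other 3 day 0 samples, which lay between 17.3% and 17.9%. Vitvi10g00478 stood at 435 CPM in day 0 replicate 3, summed with its near copy 6, while the lowest day 0 sample had 65.1 CPM; the group mean was 168 ± 178 CPM (SD, n = 4). Both were found as samples far from the rest of their group, among 17 sets of 4 or 5 values examined, of which chance alone gives about 1 in 20.

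The day 1 change differed between V. riparia and V. amurensis in 145 genes, between V. riparia and Cabernet Sauvignon in 425 and between V. riparia and Riesling in 188, each by a test of the difference itself. None of the 4 named genes was among them by edgeR's adjusted p.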

How the results depend on the processing

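The count of 3024 genes stayed within a factor of 1.5 under the other size factors, DESeq2, no expression filter, the no-feature covariate, a 2-fold minimum, fits without day 4 and replicates 1 to 3. It was 4912 with every library as its own sample, 1739 with days 0 and 1 only, 427 with these days and replicates 1 to 3, 1707 at a no-feature share of at most 25% and 1502 at an adjusted p under 0.01. Single omissions gave 1707 to 3635. The number of genes tested differs between settings, so the factor compares counts and not shares. Without an expression filter 2214 of 32550 genes passed, and with days 0 and 1 only 1739 of 16445.

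With the replicate number as a block it was 3769 with every library and 2119 with replicates 1 to 3. The values showed no pairing by number in V. riparia. Deviations of replicates 1, 2 and 3 correlated between the days at -0.133, -0.0893 and 0.36. Day 1 replicate 2 correlated best with day 0 replicate 1, at 0.44. With 3 replicates a day, these correlations cannot decide whether the numbers mark a shared batch, which was not tested. The block changed the genotype differences with every library to 482, 868 and 472 (V. amurensis, Cabernet Sauvignon and Riesling), and with replicates 1 to 3 to 136, 443 and 176.

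The 145, 425 and 188 genes of these differences became 332, 757 and 347 with every library, 42, 233 and 89 with replicates 1 to 3, and 416, 869 and 450 with DESeq2. Single omissions gave 42 to 303, 211 to 628 and 68 to 480. The cause was not tested.

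Vitvi10g00478 lost its call in 3 settings, at edgeR adjusted p of 0.06 to 0.0666. Of these, the no-feature limit and the omission of day 1 replicate 2 remove the same libraries and are the same fit. The other named genes kept their calls in all settings run, of which the main fit and that with replicates 1 to 3 took part in choosing them. Under single omissions the share of the top 100 genes differed between the days by -5.32 to -2.54 percentage points, the genes detected by -108 to 536, and the position on the axis of later change by -0.00123 to 0.015. The planned marker rule gave no V. riparia marker at the higher minimum either. Depth limits genes under 2.81 and 2.94 CPM in the shallow day 0 replicates 3 and 4, and under 1.95 CPM in day 1 replicate 2.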

Other observations

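A few of the changed genes had no count at all on one side. In 23 of the 1910 risers the 6 day 0 libraries held no count among 30304036, and pooled day 1 levels ran from 0.285 to 3.42 CPM of the raw group total, the scale of this paragraph. Against the floor of 3 counts over the day 0 group, 0.099 CPM, the largest of these rises was at least 34.5-fold. In 4 of the 1114 fallers the 4 day 1 libraries held no count among 21070970, with pooled day 0 levels from 0.363 to 1.12 CPM.

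Changed genes were found under every chromosome number in the identifiers. Between 11.6% (chromosome 13) and 17.3% (chromosome 11) of tested genes passed, and 3.52% of the 142 genes numbered 0 did.

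Day 1 samples did not stand apart from day 0 samples along the later change. On an axis from the mean of day 2, set to 0, to that of day 12, set to 1, which used no library of days 0 and 1, the day 0 samples stood at -0.0615 ± 0.02 (SD, n = 4) and the day 1 samples at -0.0548 ± 0.00767 (n = 3; exact permutation p = 0.686, adjusted over 5 measures 0.686). Day 3 stood at 0.121 ± 0.039 and day 5 at 0.209 ± 0.0156 (n = 3 each). This axis was chosen after the data had been seen.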
